A study of Mus musculus with 2 samples.

Results

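The Trim genes, which encode tripartite motif proteins, were examined in inflammation-experienced regulatory T (Treg) cells, CD4 T cells that restrain immune responses. Members were the protein-coding genes of the mouse annotation (GENCODE M21, mm10) whose symbol is Trim followed by a number and at most 1 letter, and this rule gave 68 of 21853 protein-coding genes. Chromatin accessibility had been measured by ATAC-seq, which uses Tn5 transposase to cut and tag open DNA, in primary cells of a male mouse aged 6 months of the strain Foxp3CreERT2 x Rosa26YFP. This strain carries an inducible Cre recombinase driven from the Foxp3 locus and a Cre-dependent yellow fluorescent reporter. Both samples, 2 in number, came from 1 biological replicate as its technical replicates and made up 1 group. The labels trace the cells to hematopoietic cells of the bone marrow. They do not state which inflammation the cells had met, and no other condition was analysed here. The deposited peak lists carry no value labelled by library, so no spread between libraries, or between mice, is given, and the depth of each library is unknown.

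Trim proteins join a RING finger, B-box zinc fingers and a coiled coil to a variable carboxy-terminal domain. Most are ubiquitin ligases. Many of them act in antiviral defence and are induced by interferons, others act on chromatin, and others are used in muscle, neurons or the germ line. Interferon-induced genes often carry an interferon-stimulated response element (ISRE), a pair of GAAA half-sites bound by STAT and IRF factors.

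A gene was counted as having an accessible promoter if a region of the IDR-thresholded list (IDR, irreproducible discovery rate) overlapped the 1000 bp on either side of one of its protein-coding transcript starts. Its locus was taken as those regions plus the other regions whose summit was nearest to one of its starts, within 100 kb. The fold enrichment over background and the −log10 p of a region are the authors' values. The cells' identity was checked on fixed markers: 5 of 6 Treg genes and 7 of 8 pan T cell genes had an accessible promoter, the exceptions being Tnfrsf18 and Cd4. The same held for 1 of 5 B cell genes (Pax5), 1 of 5 myeloid genes (Cebpa) and 2 of 4 erythroid genes (Klf1 and Epor). It held for 0 of 4 granulocyte genes, of which 1 had a region in its locus. Over all protein-coding genes the share was 49.7%, close to the erythroid count. The median promoter fold was 9.62 in the Treg genes and 14.2 in the pan T cell genes, against 16.4 over all genes with an accessible promoter. It was 15.6 in the erythroid genes, and the fold was 15.4 at Pax5 and 11.9 at Cebpa. The check thus rests on the counts, and promoter height did not set the T cell markers apart.

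Of the 68 Trim genes, 36 (52.9%, 95% exact binomial interval 40.4 to 65.2%) had an accessible promoter, close to the 49.7% of all protein-coding genes. The family as a whole therefore stood near the background, and its members differed widely among themselves. The 36 genes had 38 promoter regions, since Trim24 and Trim41 had 2 each. The highest promoter region of each gene had a median fold enrichment of 16.5 (range 6.62 to 29.6), against 16.4 over all genes with an accessible promoter. In the same loci lay a further 61 regions, which gave 99 in all. A locus held 1.46 regions on average (median 1, highest 9), against 1.32 over all protein-coding genes. At least 1 region was assigned to 46 members (59.1% of all protein-coding genes had at least 1), and none to the other 22 (40.9% of all protein-coding genes had none). The intervals cover counting error over genes only, and no test was made, because the cells came from 1 biological replicate and genes cannot stand in for others. Accessibility says nothing here of RNA levels.

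**Figure D1:**
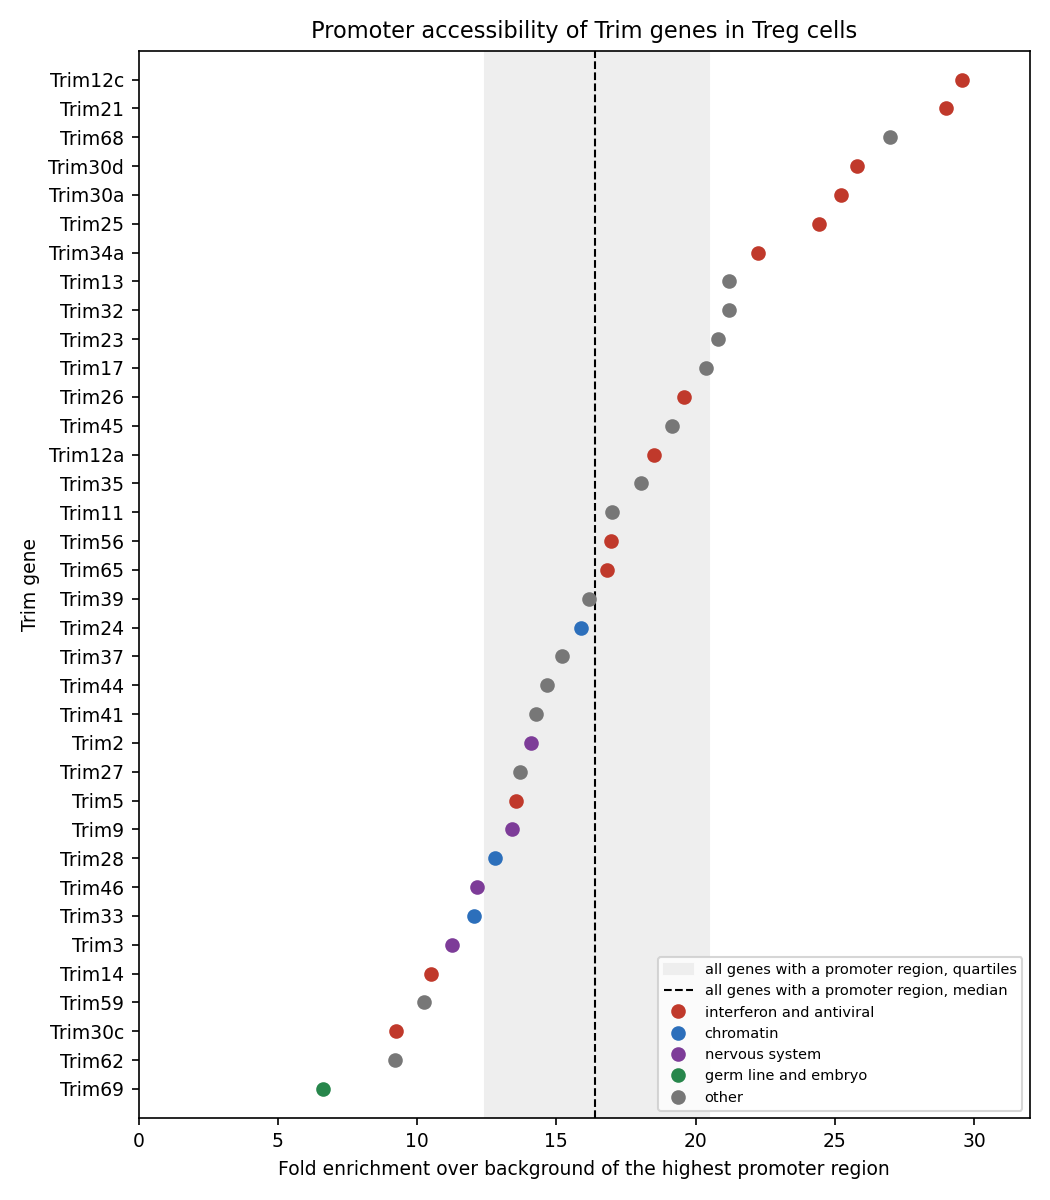
Fold enrichment over background (x axis) of the highest promoter region of each of the 36 Trim genes with an accessible promoter, coloured by known role, with the median (16.4, dashed line) and quartiles (grey band) of all protein-coding genes with an accessible promoter. Of the 7 highest genes, 6 are of the interferon and antiviral group (red), and the lowest is Trim69.

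Trim genes of interferon responses and antiviral defence took 6 of the 7 highest promoter folds of the family. The group was chosen from background knowledge of the family, with earlier results of these data known. It held 17 genes, and 13 of them (76.5%, 50.1 to 93.2%) had an accessible promoter, against 23 of the 51 other members (45.1%, 31.1 to 59.7%). The share of all protein-coding genes was 49.7%, just below the lower end of the group's interval and inside that of the other members. The median promoter fold was 19.6 in the group and 14.7 among the other members, against 16.4 over all genes with an accessible promoter. The 4 genes of the group without an accessible promoter were Trim6, Trim30b, Trim34b and Trim38. All 10 genes of the chromosome 7 array described below are in the group, and the interval treats these related genes as independent. This difference between groups of genes is a description and was not tested.

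Trim12c, a mouse relative of the capsid-binding restriction factor TRIM5, had the highest promoter of the family. Its region chr7:104353022-104353897 had a fold of 29.6 and ranked 73 among the 10861 genes with an accessible promoter. In the 2 sets of reads that the authors ranked against each other to obtain the IDR, its −log10 p was 361 and 362. Which reads each set holds is not named in the sources used here, and the list was chosen for agreement between them, so these values are no check on replicates. Trim21, a cytosolic antibody receptor that marks antibody-coated viruses for degradation, followed with 29.0 at chr7:102565098-102565863, with −log10 p values of 172 and 195 in these sets. It ranked 100 among all genes. Trim30d and Trim30a had 25.8 and 25.2. Trim30a is known as an inhibitor of NF-kB signalling. Trim25, a ligase that promotes RNA sensing by RIG-I, had 24.4 at chr11:88999017-88999914, and Trim34a had 22.2. All of these exceeded the upper quartile of all accessible promoters, which was 20.5.

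The rest of the antiviral group lay lower. Trim26, in the major histocompatibility complex on chromosome 17, had a fold of 19.6, Trim12a had 18.5, Trim56 had 17.0 and Trim65, a ligase acting on the RNA sensor MDA5, had 16.8. Trim5 had 13.5, Trim14, an adaptor without a RING finger, had 10.5 and Trim30c had 9.24. Trim14 and Trim30c were among the 5 lowest promoters of the family, with Trim59 (10.2), Trim62 (9.20) and Trim69 (6.62).

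Short stretches around the ISRE letters (GAAA, any 2 bases, GAAA) are shown because 9 of the 38 Trim promoter regions held them within 150 bp of the summit (23.7%), against 3.67% of the 11184 promoter regions of all genes. All 9 belong to the interferon and antiviral group. The letters were searched on both strands of GRCm38, and each stretch is written 5′ to 3′ along the gene's sense strand, with the matching letters or their complement in capitals.
Trim21: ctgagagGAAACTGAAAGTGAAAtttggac
Trim26: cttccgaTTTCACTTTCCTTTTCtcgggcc
Trim34a: tggtttggagTTTCAGTTTCttttctctgc
Trim14: ccgagcaaggTTTCGATTTCtgcaccaacc
Trim12c: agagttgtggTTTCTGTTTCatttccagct
Trim12a: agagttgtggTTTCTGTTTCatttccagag
Trim5: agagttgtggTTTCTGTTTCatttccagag
Trim30a: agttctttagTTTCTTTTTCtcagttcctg
Trim30d: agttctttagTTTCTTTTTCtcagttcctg
Trim21 (chr7:102565447-102565476, minus strand) and Trim26 (chr17:36836979-36837008, plus strand) each held 2 overlapping matches. The stretches of Trim12a (chr7:104315466-104315495) and Trim5 (chr7:104288136-104288165) are the same letters, as are those of Trim30a (chr7:104465210-104465239) and Trim30d (chr7:104507871-104507900), all on the minus strand, so these promoters are not independent. The others lie at chr7:104353359-104353388 (Trim12c, minus), chr7:104244457-104244486 (Trim34a, plus) and chr4:46536124-46536153 (Trim14, minus).

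The letters were searched only in a set window around the summits of promoter regions, and these regions were themselves chosen near starts. Closeness of the matches to summit and start therefore follows largely from the search and is no separate result. The centres of the matches were between −93 and 49 bp from the summit in genome coordinates, and at Trim14 on the summit itself (0 bp). Measured from the nearest start of the gene, they lay between −151 bp (Trim26) and 12 bp (Trim34a). The 9 regions with the letters had a median fold of 22.2 (10.5 to 29.6), and the 29 Trim promoter regions without them had 14.7 (4.28 to 27.0). Over the promoter regions of all genes the order was the other way, with a median of 13.7 in 410 regions with the letters and 15.3 in 10774 without. The longer form, with a C after the second GAAA, was found in 7 of the 9, all but Trim21 and Trim26, and in 1.26% of all promoter regions. The letters were absent from these windows at Trim25, Trim30c, Trim56 and Trim65. Among the Trim regions outside promoters, 9 of 61 held them (14.8%), against 8.29% of all such regions. RefSeq's promoter table (GRCm38.p6) held 53 members, and 9 of them had the letters in its window around the start, against 3.99% of its 27025 genes. These were the same names with Trim2 in place of Trim14. A match is a description of the sequence and not a measured binding site.

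The other 9 motifs searched gave smaller gaps from the background, and the RUNX, AP-1 and NFY counts rest in part on the copied promoters. TGTGGTT, the RUNX motif, was found in 6 Trim promoter regions (15.8%, against 4.50% of all), those of Trim11, Trim45, Trim30c, Trim5, Trim12a and Trim12c. In the last 3 it overlapped the ISRE letters, as seen above. TGANTCA, the AP-1 motif, was found in 5 (13.2%, against 5.04%), those of Trim2, Trim41, Trim44, Trim30a and Trim30d. CCAAT, bound by NFY, was found in 20 (52.6%, against 38.6%), among them Trim5, Trim12a, Trim12c, Trim30a and Trim30d. GGGCGG, the GC box, was found in 21 (55.3%, against 65.1%) and CCGGAAG, bound by ETS factors, in 4 (10.5%, against 20.3%), which were Trim11, Trim41, Trim44 and Trim68. CACGTG, the E box, was found in 2 (5.26%, against 10.7%) and the NRF1 motif in 1, Trim32 (2.63%, against 1.90%). The NF-kB motif (0.358% of all) and TTTCGCGC, the E2F motif (0.760% of all), were in none of the 38 windows.

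**Figure D2:**
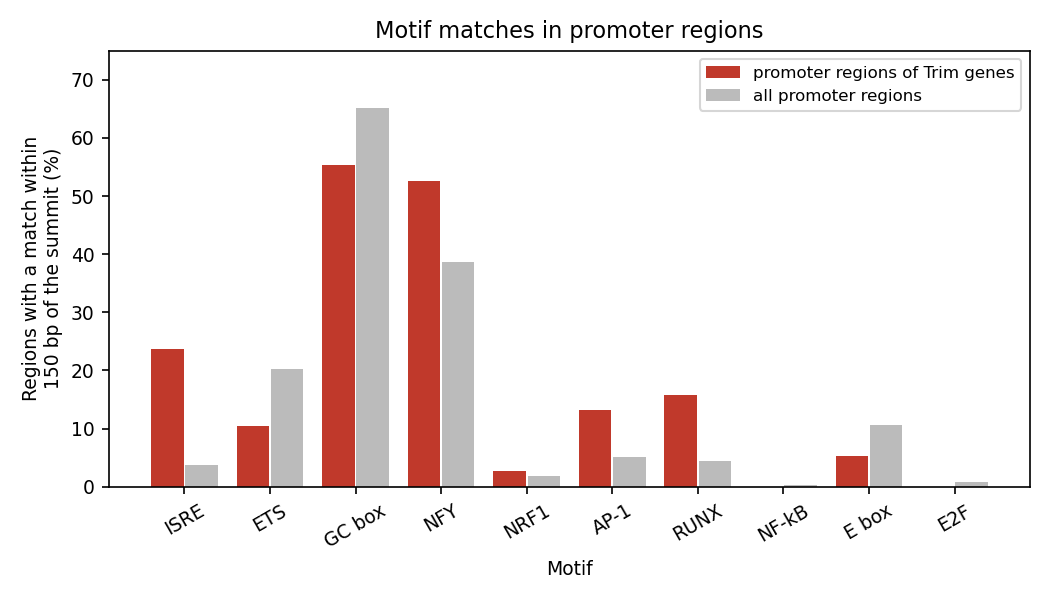
Percentage of promoter regions with a match within 150 bp of the summit (y axis) for the 10 motifs searched (x axis), in the 38 promoter regions of Trim genes (red) and in the 11184 of all protein-coding genes (grey). The ISRE letters stand at 23.7% against 3.67%.

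Of the promoters with the ISRE letters, those of Trim34a, Trim5, Trim12a, Trim12c, Trim30a and Trim30d lay in a tandem array on chromosome 7. This array holds 10 Trim genes in 289 kb, from Trim6 (chr7:104218793-104235152) to Trim30d (chr7:104470014-104507849). Of these, 7 had an accessible promoter, against 49.7% of all protein-coding genes. The array held 13 regions, a count with no background density beside it. Promoter folds along it were 22.2 at Trim34a, 13.5 at Trim5, 18.5 at Trim12a, 29.6 at Trim12c, 9.24 at Trim30c, 25.2 at Trim30a and 25.8 at Trim30d. Trim6, at the outer end, and Trim34b and Trim30b, inside the array, had no promoter region in the IDR-thresholded list. In the larger pseudoreplicated list, in which 55.3% of all genes had an accessible promoter, Trim30b had one with a fold of 12.1 and Trim6 one with 5.81, while Trim34b had none there or among all ranked candidates. Trim21 and Trim68 lie on the same chromosome outside the array, and Trim68 had a fold of 27.0.

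**Figure D3:**
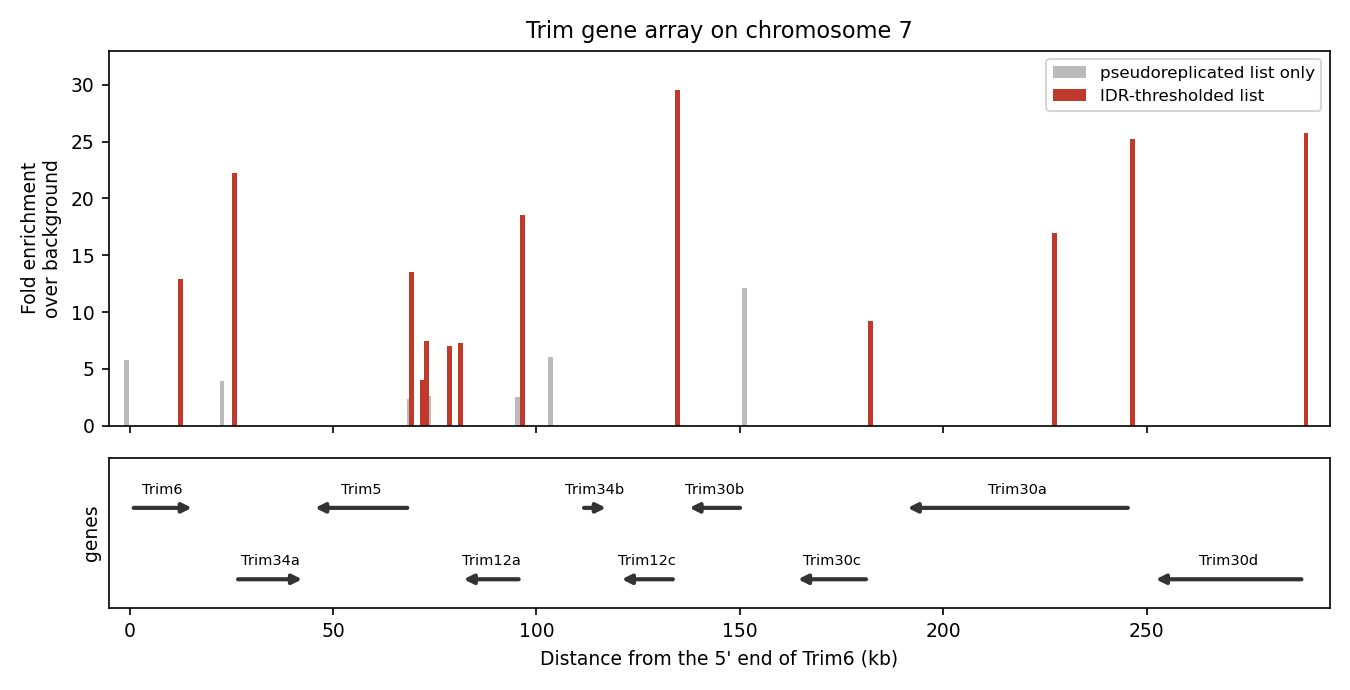
Map of the Trim array on chromosome 7, with distance from the 5′ end of Trim6 in kb on the x axis. Bars give the fold enrichment over background of each region, all drawn at 1 fixed width (red, IDR-thresholded list; grey, pseudoreplicated list only), and arrows give the genes in their direction of transcription. The highest bar, at 29.6, stands at the start of Trim12c, and no red bar stands at the starts of Trim6, Trim34b and Trim30b.

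The Trim30 copies differed in promoter height and were similar in sequence. Their 120 bases upstream of the most upstream annotated exon are shown because Trim30a and Trim30d, with folds of 25.2 and 25.8, hold the ISRE letters there (capitals), whereas Trim30c, with 9.24, and Trim30b, absent from the IDR-thresholded list, do not. All are on the minus strand and written along the gene.
Trim30a: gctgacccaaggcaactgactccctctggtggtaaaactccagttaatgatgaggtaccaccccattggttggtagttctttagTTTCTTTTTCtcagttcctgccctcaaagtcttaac
Trim30d: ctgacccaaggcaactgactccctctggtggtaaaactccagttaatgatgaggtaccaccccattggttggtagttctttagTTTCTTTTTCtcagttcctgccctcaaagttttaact
Trim30c: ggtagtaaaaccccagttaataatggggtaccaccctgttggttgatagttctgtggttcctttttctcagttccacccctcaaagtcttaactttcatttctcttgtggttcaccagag
Trim30b: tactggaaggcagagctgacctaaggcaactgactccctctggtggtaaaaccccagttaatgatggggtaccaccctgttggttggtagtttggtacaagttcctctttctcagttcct
These stretches are chr7:104465194-104465313 (Trim30a), chr7:104507854-104507973 (Trim30d), chr7:104400853-104400972 (Trim30c) and chr7:104369885-104370004 (Trim30b). In the pseudoreplicated list Trim30b had a promoter fold of 12.1, above the 9.24 of Trim30c. Whether the letters bear on promoter height was not tested. Over the 300 bp upstream of the gene's 5′ end, Trim30a was 93.2% identical to Trim30d, 90.8% to Trim30c and 90.0% to Trim30b in aligned bases. Trim5 and Trim12a, which both hold the letters, were 100% identical over 258 aligned bases and had promoter folds of 13.5 and 18.5. Trim12a and Trim12c were 95.9% identical over 293. Trim34a and Trim34b aligned over 76 bases only.

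Such copies can lose or exchange reads that map to several places. Within 500 bp of the 5′ end, the share of 31-base words found once in the assembled chromosomes was 34.5% at Trim5, 42.8% at Trim12a, 69.0% at Trim12c, 73.4% at Trim30d and 73.7% at Trim30a, all of which had an accessible promoter. It was 34.7% at Trim34b, 64.5% at Trim38, 8.24% at Trim7 and 26.4 to 41.7% at the 3 Trim43 genes, none of which had one. At Trim30b and Trim30c it was 85.1% and 87.5%. Over the family, 5 of the 36 genes with an accessible promoter and 6 of the 32 without were below 80%. The authors' treatment of reads with several matches is not given in the sources used here. The part of repeated sequence in these calls was not tested.

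Inside the gene body of Trim30a, a second region, chr7:104445786-104446710, had a fold of 16.9, with its summit 19040 bp downstream of the GENCODE start. RefSeq (GRCm38.p6) places another start of Trim30a at position 104446125, and the summit lay at −28 bp from it along the gene. This was the only one of the 61 Trim regions outside GENCODE promoter windows that lay within 1000 bp of a RefSeq start of its own gene. Upstream of Trim5 lay 4 further regions, with folds of 4.01, 7.42, 7.02 and 7.27, the last of them in an exon of Trim12a.

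Of the 4 chromatin regulators, 3 had an accessible promoter (interval 19.4 to 99.4%, against 49.7% of all genes), Trim66 being the exception. The highest promoter folds of these 3 all lay below the median of all genes with an accessible promoter (16.4). That of Trim33 was also below the lower quartile of those genes (12.4). Trim24, Trim28 and Trim33 recruit chromatin modifiers through a PHD finger and a bromodomain, and Trim28, also known as KAP1, is the corepressor of KRAB zinc finger proteins. Trim24 had 2 promoter regions with folds of 15.9 and 4.28 and another region, with 17.4, at −49039 bp from its start. Trim28 had a single region with a fold of 12.8, which at 2064 bp and 8 summits was the widest of the family (chr7:13023121-13025184). Trim33, which regulates TGF-beta signalling through Smad4, had a promoter fold of 12.1. Its locus held 9 regions, the most of any Trim gene in the IDR-thresholded list. With gene 5′ ends alone it held 3, and among regions of the upper 50% by fold, 0. In the pseudoreplicated list it held 12, fewer than Trim8 (15) and Trim2 (14), and with summits counted singly it held 16, fewer than Trim27 (20). Trim66 had none in its locus.

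The 8 regions of Trim33 outside its promoter lay downstream. One was intronic (fold 10.9), and 7 were intergenic, with summits 36628 to 63644 bp from the nearest start of the gene and folds from 4.56 to 11.9. The highest was chr3:103397175-103398100. These regions were assigned by distance alone, and no measurement links them to the gene.

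Trim8, a ligase that acts on cytokine and NF-kB signalling, had 8 regions but none in its promoter window. The nearest was chr19:46499563-46500278, with a fold of 11.4 and its summit at −1790 bp, and another, with 5.96, lay at 2064 bp. The pseudoreplicated list had a region in the promoter window with a fold of 2.29 and a −log10 p of 9.24. The highest region of the locus, with 18.0, lay at −22752 bp in an intron of Sufu, which also held 3 others. With 9.09 regions per 100 kb of the sequence nearest to its start, Trim8 was denser than Trim33 (4.16), whose territory was 216 kb.

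Trim2, a ligase best known from neurons, was assigned 7 regions over a locus with 10 annotated starts. Its promoter region, chr3:84220278-84221228, had a fold of 14.1 and lay at an internal start. The highest region, with 22.9, was intronic at −7834 bp from the nearest start (chr3:84228232-84228884), and the other 5, with folds from 9.75 to 14.1, lay upstream of the gene at −9301 to −83261 bp. Trim27 had 5 regions, with 13.7 at the promoter and 15.3 at chr13:21199919-21200898, and Trim5 also had 5. Trim14 and Trim36 had 4 each. Trim36 had none at its promoter in the IDR-thresholded list and folds of 8.32 to 11.4 elsewhere. In the pseudoreplicated list its highest promoter region had 6.27. Trim7, Trim24, Trim25, Trim26 and Trim44 had 3 each. Outside the promoter, Trim25 had regions with folds of 14.0 and 16.1, Trim26 with 6.97 and 10.9 and Trim44 with 10.9 and 8.61.

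**Figure D4:**
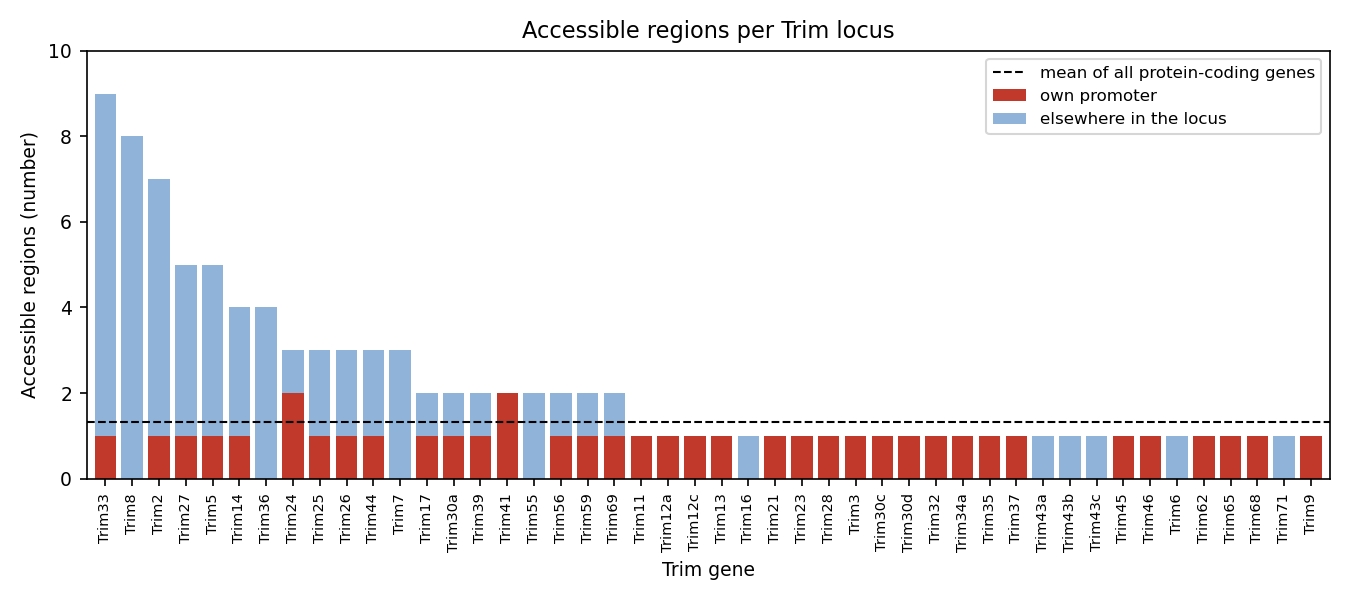
Number of accessible regions (y axis) at each of the 46 Trim loci with at least 1 region (x axis), split into own promoter (red) and elsewhere in the locus (blue). The dashed line is the mean of all protein-coding genes (1.32). Trim33 (9), Trim8 (8) and Trim2 (7) have the most, and the bar of Trim8 holds no promoter region.

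Few Trim genes of muscle, red blood cells and the germ line had an accessible promoter. The median ratio of observed to expected CpG was 0.207 in the muscle group and 0.190 in the germ line group. In the lower 3 deciles of this ratio, 11.6% of all genes had an accessible promoter. Of the muscle, red blood cell and germ line genes, only Trim55, Trim72, Trim10, Trim69, Trim75 and the Trim43 genes were in that class. Trim54, Trim63, Trim58, Trim42, Trim60 and Trim61 were in the middle 4 deciles (52.8% of all genes) and Trim71 in the upper 3 (83.6%). The part of CpG in these counts was not tested. Of the 4 genes of striated muscle none had an accessible promoter (interval 0 to 60.2%, against 49.7% of all genes). These were Trim54, Trim55 and Trim63, which act at the sarcomere, and Trim72, which repairs the membrane; Trim55 alone had regions, 2 in its introns with folds of 9.27 and 8.89. Trim10 and Trim58, which act in red blood cell formation, had no region. In the germ line and early embryo group 1 of 9 genes had an accessible promoter (11.1%, 0.281 to 48.25%, against 49.7% of all genes). It was Trim69, whose promoter region was also the narrowest of the family (236 bp) and had a fold of 6.62. Another region, with 15.1, lay 3807 bp from the start of Trim69, in introns of both Trim69 and Patl2. Trim42, Trim60, Trim61 and Trim75 had no region, and Trim71, a regulator of stem cells, had 1 intronic region (fold 13.1). In the nervous system group, with a median CpG ratio of 0.623, 4 of 5 promoters were accessible: Trim2 (14.1), Trim9 (13.4), Trim46 (12.1) and Trim3 (11.3). Trim67 was the exception and had a promoter region with 6.82 in the pseudoreplicated list only.

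Each of the 3 Trim43 genes had a single, high region far downstream of the gene. The folds were 23.8 at Trim43a, 20.4 at Trim43c and 19.7 at Trim43b, with summits 18409, 19630 and 25802 bp from the nearest start. Among the 61 regions outside promoters, only that of Trim2 with 22.9 stood between them. The central 101 bases at the summits are shown because they overlap in sequence.
Trim43a: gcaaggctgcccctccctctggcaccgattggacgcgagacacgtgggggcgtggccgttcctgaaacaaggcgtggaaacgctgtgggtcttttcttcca
Trim43b: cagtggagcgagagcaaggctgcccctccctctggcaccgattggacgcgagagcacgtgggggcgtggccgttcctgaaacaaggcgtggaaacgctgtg
Trim43c: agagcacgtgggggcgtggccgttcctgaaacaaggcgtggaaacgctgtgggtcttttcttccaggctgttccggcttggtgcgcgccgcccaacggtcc
The stretches are chr9:88599506-88599606 (plus strand), chr9:89066838-89066938 (minus) and chr9:88858889-88858989 (plus), written along the gene. In the 501 bp centred on each summit, identity in aligned bases was 97.7% between Trim43a and Trim43b, 98.5% between Trim43a and Trim43c and 97.3% between Trim43b and Trim43c. Copies this similar can lose or exchange reads, so the 3 folds may not be independent. The part of repeated sequence in them was not tested. The regions of Trim43a and Trim43c lie at the starts of the noncoding genes 9430037G07Rik (summit at −40 bp from the start along that gene) and 9330159M07Rik (−69 bp), so they need not belong to the Trim43 genes. Of the 61 regions outside promoters, 1 other lay within 1000 bp of a noncoding start, that of Gm16170 at Trim7.

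Members of no assigned role numbered 27, of which 15 had an accessible promoter. Trim13, which sits in the endoplasmic reticulum membrane, and Trim32, which has NHL repeats, had folds of 21.2 each, Trim23, which carries an ARF domain, had 20.8 and Trim17 had 20.4. Trim45 (19.2), Trim35 (18.0), Trim11 (17.0), Trim39 (16.2), Trim37 (15.2), Trim44 (14.7), Trim41 (14.3) and Trim27 followed, and Trim68, Trim59 and Trim62, given above, made up the 15. By domain, 3 of 4 genes with NHL repeats, 2 of 4 with a COS box and fibronectin repeat, 0 of 3 of the muscle genes with a COS box and 2 of 2 with a transmembrane segment had an accessible promoter. Against 49.7% of all genes, no difference can be read from groups this small. Without an accessible promoter were Trim7, Trim8, Trim15, Trim16, Trim29, Trim31, Trim36, Trim40, Trim47, Trim50, Trim52 and Trim80. Of these, Trim16 had 1 region, at 1685 bp from a start, with a fold of 7.33, and a promoter region with 6.34 in the pseudoreplicated list. Trim7 had 3 regions with folds of 5.73 to 11.0, and 4.78 at its highest promoter region in that list. Next to Trim26 on chromosome 17, the genes Trim15, Trim10, Trim40 and Trim31 had no region in their loci. Trim6 had 1, in an intron, with a fold of 12.9.

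The promoter regions had their summits close to the starts. Of the 38, 35 had the summit within 200 bp of a start of the gene, 25 of them upstream of it. The regions were chosen for overlapping a window around a start, so this closeness follows largely from the rule. Summit distances were not counted over all promoter regions. The width of the 38 had a median of 968 bp, against 900 bp over all promoter regions. More than 1 summit was present in 35 of the 38, against 78.7% of all promoter regions. The 61 other regions were narrower, with a median of 517 bp, and their median fold was 10.9 (4.01 to 23.8), and 26 had their summit in an intron, 34 in intergenic sequence and 1 in an exon. Over all genes the regions outside promoters had a median fold of 12.1. A promoter region was shared with another gene's promoter window in 3 of 38 (7.89%), against 12.1% of all promoter regions: Trim23 with Trappc13, Trim17 with Hist3h2a and Trim46 with Krtcap2. These 3 cannot be given to 1 gene.

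In the class of genes poorest in CpG, a larger share of Trim promoters was accessible than of all promoters. The median ratio of observed to expected CpG within 500 bp of the gene's 5′ end was 0.356 over the family and 0.552 over all genes. In the lower 3 deciles of this ratio, 10 of 23 Trim genes had an accessible promoter (43.5%, 23.2 to 65.5%), against 11.6% of all genes. In the middle 4 deciles the count was 16 of 31 (51.6%, against 52.8%), and in the upper 3 it was 10 of 14 (71.4%, 41.9 to 91.6%, against 83.6%). The 10 genes poor in CpG with an accessible promoter were Trim2, Trim5, Trim12a, Trim12c, Trim21, Trim28, Trim30a, Trim30c, Trim30d and Trim69. The ratio was 0.0209 at Trim30d, 0.0391 at Trim30c and 0.0587 at Trim30a. At Trim2 and Trim28 the accessible start is not the 5′ end of the gene record at which CpG was counted, and with calls at that end alone the count was 8 of 23, against 6.51% of all genes. The copies on chromosome 7 share sequence and are not independent, and no test was made.

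**Figure D5:**
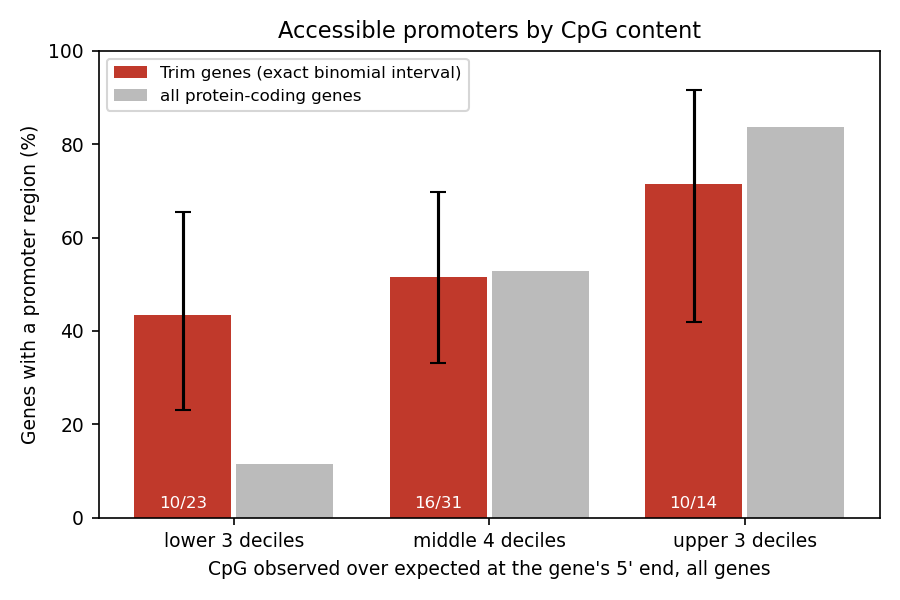
Percentage of genes with an accessible promoter (y axis) in 3 classes of CpG observed over expected at the gene's 5′ end (x axis), for Trim genes (red, with 95% exact binomial intervals over genes, and counts in the bars) and all protein-coding genes (grey). In the lower 3 deciles the Trim genes stand at 43.5% and all genes at 11.6%.

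Among relatives of the family, the share of accessible promoters was near that of all genes. Of 12 genes that encode proteins of Trim or related architecture under other names, 7 had an accessible promoter (58.3%, 27.7 to 84.8%, against 49.7% of all genes), with a median fold of 10.6. They were Mid1, Mid2, Pml, Rnf135, Rnf207, Bspry and Cmya5, and those without were Mefv, Triml1, Triml2, Fsd1 and Fsd1l. Pml, which organises nuclear bodies, had 7.46, and Rnf135, which ubiquitinates RIG-I, had 16.7. All 23 measured partners had one, with a median fold of 13.9, below the 16.4 of all genes with an accessible promoter. Their median CpG ratio was 0.785, and in the upper 3 deciles of this ratio 83.6% of all genes had an accessible promoter. The partners were ubiquitin-conjugating enzymes and genes of nucleic acid sensing, and 1 entry of that list, Mb21d1, was not in the gene set under this symbol. Mavs, the mitochondrial adaptor of RNA sensing, had 24.0 and Isg15, a ubiquitin-like modifier, had 6.27. Most of these partners are expressed in many cell types.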

How the data were processed

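ATAC-seq peak lists of 2 technical replicates of 1 mouse, which formed 1 group, were used. Per the labels and text files deposited with the samples, the authors derived 3 lists on mm10 from 1 filtered alignment. Each deposited peak has a fold enrichment (ratio) over an unstated background, a −log10 p and a score, and the ranked list adds the −log10 IDR. Aligner, caller, read filters, Tn5 shift and depth: not given in the sources used here.

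Overlapping or touching peaks of the IDR-thresholded list (58138) were merged into 29415 regions, and the peak of greatest fold gave fold and summit. Starts came from GENCODE M21 and sequence from GRCm38.p6; 21 chromosomes matched and 0 peaks ran past an end. Scripts used Python 3.11.15, pandas 2.3.3, scipy 1.17.1 and Biopython 1.88, and the region and promoter calls were tested on simulated data. Intervals are exact binomial (95%) and cover counting error only. RefSeq mRNAs were found for 68 members.

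Genes named were the 10 highest and 5 lowest promoters, the 8 loci with most regions (ties included) and the interferon and chromatin groups. Also named were members without a promoter region but with one in the locus or in the pseudoreplicated list. The remaining members are given by name within counts. Members and lists were chosen with earlier results of these data known. Alternatives were another list, window, start set, distance limit, merging and motif form. No values per library were analysed here.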

Additional observations from a re-analysis of the deposited data

How the results depend on the processing

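The number of Trim genes with an accessible promoter was between 27 and 43 under the 8 alternatives, within 1.5 times the 36 reported. The pseudoreplicated list added Trim6, Trim7, Trim8, Trim16, Trim30b, Trim36 and Trim67, and the upper 50% of regions by fold lost 9 genes. A window of 2000 bp added Trim7, Trim8, Trim16 and Trim36 (40, with 50.9% of all genes). Gene 5′ ends alone lost Trim2, Trim28 and Trim44 (33, with 46.7% of all genes). The mean number of regions per Trim locus moved from 1.46 to 2.54 in the pseudoreplicated list (2.28 over all genes), 3.26 with summits counted singly (2.69), 0.897 without own promoter regions (0.740) and 0.662 in the upper 50% of regions (0.676), the only setting with the family below all genes. More, fewer or smaller units are counted by construction there. The median promoter fold stayed between 14.7 and 16.5, and it was below that of all genes in the pseudoreplicated list (14.7 against 15.6) and with 2000 bp (15.5 against 16.4). ISRE letters were in 9 promoter regions within 100 bp of the summit, against 2.78% of all promoter regions. Alternatives for CpG and shared promoters were chosen after seeing the data. They gave 7 to 11 Trim genes poor in CpG with an accessible promoter, against 6.51 to 15.3% of all genes of that class. Shared promoters numbered 3 or 4, against 10.5 to 13.1% of all promoter regions. For single members, 592 region counts stayed within 1.5 times of the reported value and 88 moved. The lists pool the libraries, so neither could be left out. No paired analysis was possible because there was 1 group. Depth limits could not be set, since the depth is unknown.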
